A study of Mus musculus with 46 samples.

Results

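C1q, the recognition molecule of the classical complement pathway, was followed through its 3 genes, C1qa, C1qb and C1qc, which were chosen by symbol and found in all 3 expression tables, among 21231 genes present in at least 1 table. The assay was RNA sequencing of 46 mouse libraries. SVZ (subventricular zone) tissue was taken in 3 groups of 5 libraries: mice on control diet, mice fed chow with 600 ppm of PLX3397, an inhibitor of CSF1R, over 14 days, called 14 day PLX3397, and mice fed it for 14 days and then left without it for 5 days, called 5 day recovery. The second experiment sorted CD11b+CD45int cells from brain hemispheres of control mice and of mice with white matter (WM) repopulation, 28 days after 14 days of PLX3397. Both were taken without LPS (0 hr) and at 6 hr and 24 hr after intraperitoneal LPS (0.33 mg/kg), with 3, 5 and 4 libraries of control microglia and 4 libraries of WM repopulating cells at each time. The third experiment compared the same kind of sorted cells in 4 control libraries and 3 libraries of GLOBAL repopulation, 28 days after 7 days of PLX3397. All mice were C57BL/6, and the labels give no transgene or mutant allele. The sort gate used CD11b and CD45, so that the sorted cells are defined by those antigens and not by a microglial marker. The tissue and cell labels match this account, while the extraction text shared by all samples names cortex, hippocampus and thalamus/striatum, and the difference could not be settled.

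Each C1q molecule is built from A, B and C chains, 1 from each gene, which assemble into a bundle of collagen-like stalks with globular heads. The heads bind antibody, apoptotic cells and synapses, and the stalks carry the proteases C1r and C1s, which cleave C4 and C2 and lead to C3. In the brain, microglia are the main source of C1q. CSF1R signalling keeps microglia alive, and LPS, a bacterial cell wall component, activates them through Toll-like receptor signalling.

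The 3 genes lie side by side on mouse chromosome 4, in the order C1qb, C1qc, C1qa, all on the minus strand. In the RefSeq annotation of GRCm38.p6, C1qb (Entrez 12260) spans chr4:136880126-136886200, C1qc (12262) chr4:136889801-136892936 and C1qa (12259) chr4:136895916-136898844. The gaps between them are 3600 and 2979 bases, and no other annotated gene lies wholly within the 18719 bases that they cover. Promoters are shown because the 3 genes were called in the same direction in SVZ tissue, while after LPS C1qc alone was called at 6 hr. The 250 bases before the start used in the promoter table for C1qb (chr4:136886201-136886450) and for C1qc (chr4:136892915-136893164), from RefSeq and read on the minus strand 5′ to 3′, are printed with matches to searched motifs in capitals. The window of C1qb ends at the edge of the gene as given above. That of C1qc ends before a start at 136892914, so that its last 22 bases lie inside the gene's listed span. No promoter is shown for C1qa.
C1qb: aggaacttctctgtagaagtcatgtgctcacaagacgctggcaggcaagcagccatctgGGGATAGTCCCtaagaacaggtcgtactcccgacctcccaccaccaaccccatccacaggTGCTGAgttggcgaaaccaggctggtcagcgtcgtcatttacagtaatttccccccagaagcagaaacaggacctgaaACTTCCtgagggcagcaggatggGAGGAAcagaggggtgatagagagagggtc
C1qc: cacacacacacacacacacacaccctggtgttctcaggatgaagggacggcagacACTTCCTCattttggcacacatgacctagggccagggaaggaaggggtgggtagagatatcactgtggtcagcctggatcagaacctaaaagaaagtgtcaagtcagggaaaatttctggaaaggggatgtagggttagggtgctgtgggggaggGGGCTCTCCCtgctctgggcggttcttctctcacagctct
Both windows held 1 match each to the ETS/PU.1 words GAGGAA and GGAAGT, searched on both strands, which 23.3% and 19.7% of 32851 promoter windows of this length hold. The pair overlapped in C1qc, at positions -195 (GGAAGT) and -193 (GAGGAA), and stood apart in C1qb, at -53 and -30 in the same order, counted back from -1 at the last base of each window. The NF-kB motif, held by 17.6% of windows, matched at -191 and -190 in C1qb, on opposite strands of the same stretch, and at -40 in C1qc. The MAF word TGCTGA (16.1% of windows) matched in C1qb only. Neither window held the C/EBP word TTGCNNAA or its reverse complement TTNNGCAA (9.56%), the interferon response motif (2.98%), the ETS-IRF motif (2.30%) or TATAAA (12.4%). These matches describe letters, not binding.

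Expression was deposited as FPKM, fragments scaled for gene length and library depth, so that levels can be set between genes within a table. Levels were not set between tables, which were normalized separately. Low FPKM values rise in steps of 1 read, which gave about 4570000 to 10610000 reads per SVZ library, 5240000 to 10380000 in the LPS experiment and 2210000 to 5370000 in the GLOBAL experiment. Tests used limma on log2(FPKM + 1) over all genes with at least 1 FPKM in at least 3 libraries of a table, with Benjamini-Hochberg adjustment, and genes with an adjusted p under 0.05 are called changed. In SVZ control tissue the markers of astrocytes, oligodendrocytes and neurons and all 9 microglial markers were present. SVZ control replicate 1 stood apart, with 20946 FPKM of Ttr, the choroid plexus transthyretin gene, against 3.94 to 115 in the other 14 libraries. In sorted cells the 9 microglial markers sum to between 6050 and 23060 FPKM per library of the LPS experiment, and the neuronal list to at most 8.92. Neutrophil markers varied widely in sorted cells, with sums from 417 to 15120 FPKM in the LPS experiment and from 1265 to 22592 FPKM in the GLOBAL experiment. Control microglia 24 hr replicate 4 and GLOBAL control replicate 4 stood apart in the C1q genes themselves, and values of the C1q genes that changed direction, call or order without them are given beside the results.

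In control SVZ tissue the 3 genes were well expressed. C1qa measured 62.8, 78.6, 81.1, 85.6 and 95.1 FPKM in the 5 control libraries. C1qb was lower, at 39.0, 45.3, 54.3, 52.0 and 62.2 FPKM, and C1qc measured 57.7, 79.0, 76.9, 69.6 and 89.1 FPKM. The lowest value of each gene was that of the library with choroid plexus markers, and the levels came from 192 to 979 reads per gene and library. Ranked within a library, C1qa stood between place 832 and 1307 of all genes.

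After 14 day PLX3397 the 3 genes were almost undetectable. C1qa had 3, 2, 0, 1 and 0 reads in the 5 libraries, or 0.308, 0.174, 0, 0.0967 and 0 FPKM. C1qb had 6, 1, 2, 1 and 0 reads, or 0.629, 0.0888, 0.183, 0.0985 and 0 FPKM. C1qc had 6, 0, 0, 2 and 0 reads, or 0.633, 0, 0, 0.199 and 0 FPKM. Each library lay far below every control library. Pooled over the group, C1qa had 6 of about 45000000 reads, which is 0.148% of the control rate (exact Poisson 95% interval of the count 0.0544 to 0.323%). The same value was 0.398% (0.191 to 0.731%) for C1qb and 0.220% (0.0950 to 0.434%) for C1qc. These intervals cover counting error only, and a library with 0 reads allows up to 3 reads, which is 0.268 to 0.517 FPKM. Replicate 1 held 15 of these reads, more than any other library of the group. Without it the group stood at 0.0927% (0.0191 to 0.271%), 0.199% (0.0542 to 0.509%) and 0.0688% (0.00833 to 0.248%) of the control rate for C1qa, C1qb and C1qc.

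All 3 genes were called lower against control, as were 1.21% of the 14151 genes tested (1.26% in either direction). The fitted log2 fold changes were -6.19 ± 0.14 (SE) for C1qa, -5.43 ± 0.16 for C1qb and -6.03 ± 0.19 for C1qc, each with limma's adjusted p at or below 7.4e-13. The pseudocount of 1 makes these fits understate the fall of the reads. Without control replicate 1 they were -6.27, -5.52 and -6.12. In bulk tissue, fewer cells and less RNA per cell cannot be told apart. Over the same libraries the summed level of 8 genes shared by brain myeloid cells (Csf1r, Aif1, Tyrobp, Fcer1g, Laptm5, Itgam, Ptprc, Spi1) went from between 168 and 227 FPKM to between 0.846 and 2.19 FPKM. The 5 markers of border-associated macrophages in the table went from between 3.90 and 7.72 to between 1.21 and 2.49 FPKM.

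At 5 day recovery the 3 genes had returned in part, in every library. C1qa measured 4.64, 5.05, 3.08, 5.64 and 3.63 FPKM, from 27 to 59 reads. C1qb measured 1.92, 1.83, 1.30, 2.82 and 1.79 FPKM, from 11 to 29 reads, and C1qc 4.94, 5.07, 2.07, 5.10 and 3.85 FPKM, from 19 to 52 reads. No recovery library overlapped with either other group for any of the 3 genes. In percent of the control mean, C1qa stood at 5.46 ± 1.29% (SD, n = 5), C1qb at 3.82 ± 1.10% and C1qc at 5.65 ± 1.75%.

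**Figure D1:**
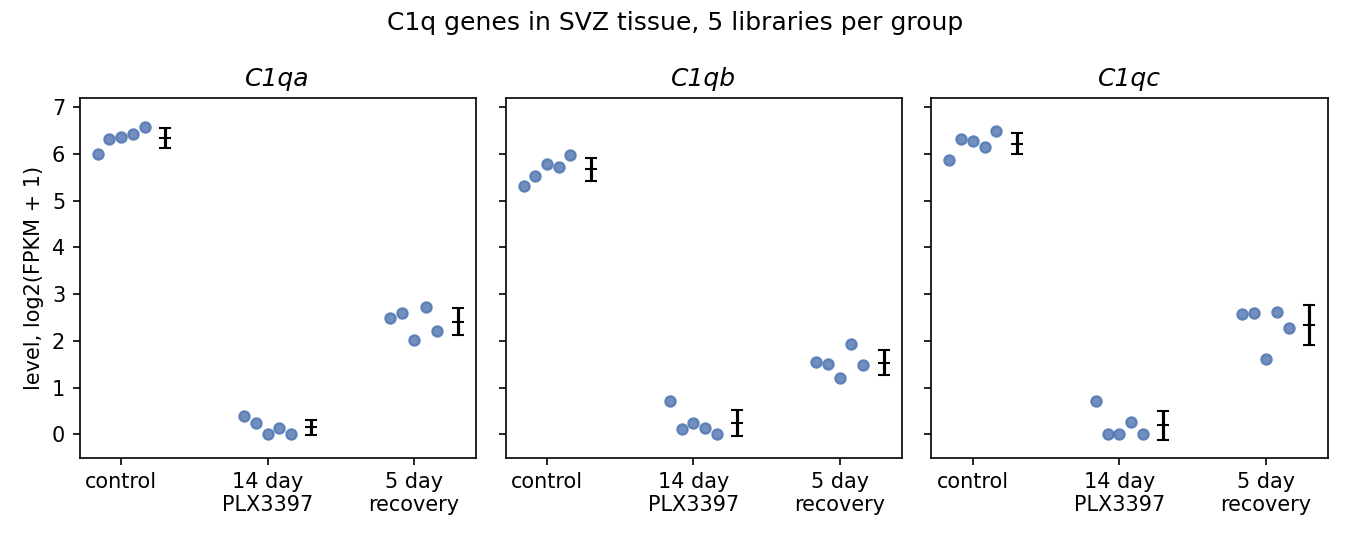
Level of each C1q gene in SVZ tissue as log2(FPKM + 1), a point per library (5 per group), with the group mean ± SD beside the points. The 3 groups separate for each gene, with 5 day recovery between 14 day PLX3397 and control.

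Against 14 day PLX3397 the 3 genes rose, where 0.29% of all tested genes were called higher and 0.325% in either direction. The fitted log2 fold changes were 2.26 ± 0.14 (SE, adjusted p = 2.5e-07) for C1qa, 1.29 ± 0.16 (adjusted p = 0.00053) for C1qb and 2.14 ± 0.19 (adjusted p = 1.5e-05) for C1qc, by limma. The pseudocount of 1 is large beside the levels after 14 day PLX3397, so that these fits understate the rise too. In pooled reads relative to depth, C1qa rose 35.9-fold (exact 95% interval 16.2 to 99.0), C1qb 9.35-fold (4.84 to 20.2) and C1qc 24.6-fold (12.2 to 58.0), with intervals for counting error only. Without 14 day PLX3397 replicate 1, which leaves 3, 4 and 2 reads, the values were 57.4-fold (19.3 to 281), 18.7-fold (7.04 to 70.3) and 78.9-fold (21.5 to 656), so that the order of C1qa and C1qc rests on that library. Against control they remained lower (1.09% of all tested genes called lower and 1.27% in either direction), by log2 fold changes of -3.93 ± 0.14, -4.14 ± 0.16 and -3.89 ± 0.19 (adjusted p at or below 4.6e-10 by limma). Each of these 9 calls held in all 21 settings run on its comparison.

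The return was unequal among myeloid genes. Csf1r, which encodes the receptor that PLX3397 blocks, stood at 3.91 ± 1.39% of control at 5 day recovery, near the C1q genes. Cx3cr1, the fractalkine receptor, stood at 4.75 ± 2.19%, and P2ry12, a purinergic receptor of homeostatic microglia, at 1.95 ± 0.82%. The signalling adaptors Tyrobp and Fcer1g stood higher, at 8.17 ± 1.95% and 9.70 ± 2.39%, and Spi1, which encodes PU.1, at 14.4 ± 4.37%. Ptprc, which encodes CD45, reached 43.8 ± 6.91% but measured only 0.565 FPKM in control tissue. C1q divided by the geometric mean of the 8 myeloid genes was 5.70 ± 0.91 (SD, n = 5) in control and 2.99 ± 0.56 in recovery, a 0.521-fold change with no overlap between the groups. The exact two-sided permutation p was 0.0079, the smallest that 5 against 5 allow, and 0.071 after adjustment over 9 comparisons. Without Ptprc, an alternative added after seeing the data, the change was 0.651-fold with the same adjusted p. Other cell markers moved too. The 4 erythrocyte markers in the table summed to between 91.3 and 336 FPKM in recovery and between 32.4 and 79.3 FPKM in control, without overlap. The 2 neutrophil markers summed to between 1.71 and 15.01 FPKM against 0.558 to 3.17, with overlap. The 6 astrocyte markers were higher, at 1607 to 2543 FPKM against 1132 to 1580, and the 5 markers of border-associated macrophages in the table lower, at 1.38 to 3.14 against 3.90 to 7.72 FPKM, both without overlap. Their part in this ratio was not tested.

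**Figure D2:**
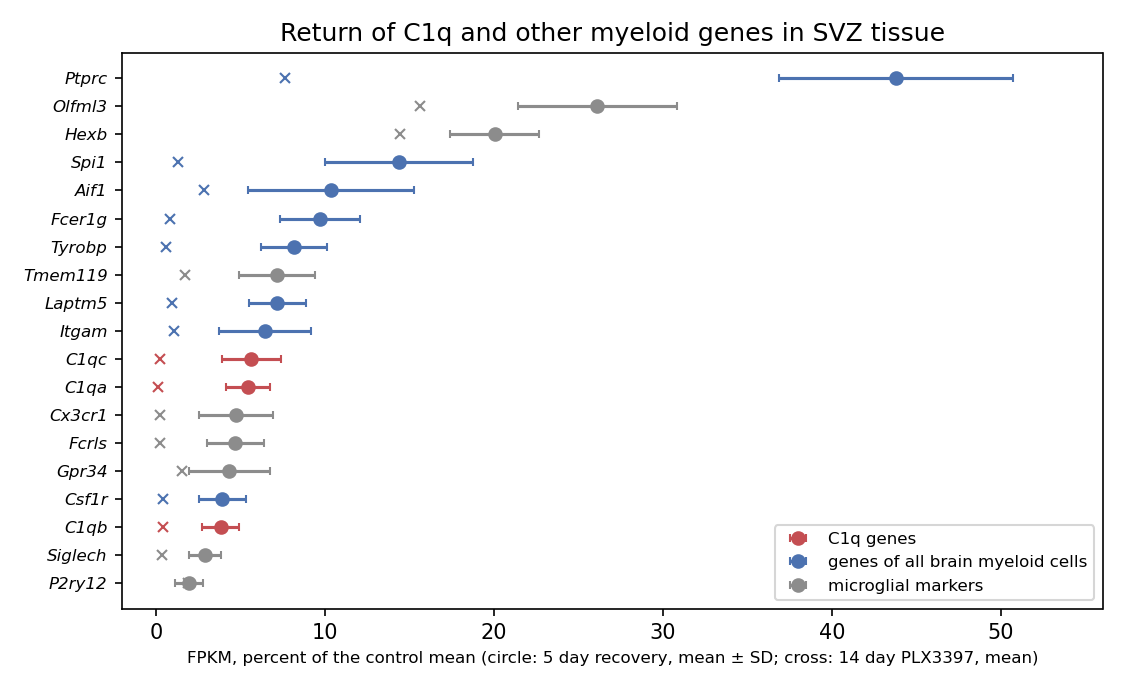
Level at 5 day recovery (circles, mean ± SD, 5 libraries) and at 14 day PLX3397 (crosses, mean) in percent of the control mean, for the C1q genes, 8 genes of all brain myeloid cells and 8 microglial markers; Sall1, at 71.3% in recovery, lies beyond the axis and is left out. The C1q genes lie between 3.82 and 5.65%, below most genes of all brain myeloid cells.

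The proportions of the subunits at recovery were compared with those of control tissue by ratios, of which none passed adjustment. C1qa stood above C1qb by a ratio of 1.60 ± 0.10 (SD, n = 5) in control and 2.31 ± 0.31 in recovery, and the groups did not overlap. C1qc over C1qb went from 1.48 ± 0.16 to 2.18 ± 0.49, with overlap, while C1qa over C1qc measured 1.09 ± 0.09 and 1.09 ± 0.23. The exact two-sided permutation p was 0.0079 for C1qa over C1qb, 0.016 for C1qc over C1qb and 0.96 for C1qa over C1qc, on log2 ratios. Over the 27 ratio comparisons of all experiments 13 had an unadjusted p under 0.05 and none passed Benjamini-Hochberg adjustment at 0.05 (lowest adjusted p = 0.074). With these group sizes none could pass, even with full separation in every comparison, so that the adjustment decides nothing here. The recovery ratios rest on 83 C1qb reads in all.

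Among 14151 tested genes, those most like the mean of the C1q genes over the 15 SVZ libraries were Ctss (Pearson's r = 0.997), which encodes the lysosomal protease cathepsin S, Laptm5 (0.997), a lysosomal membrane protein, Pld4 (0.997), Cx3cr1 (0.991) and Csf1r (0.989). These correlations are set by the 3 group levels that the libraries share. Ctss measured 73.9 ± 10.7 FPKM in control, 0.351 ± 0.157 after 14 day PLX3397 and 3.73 ± 1.47 at recovery (SD, n = 5).

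Several other genes of the complement pathway changed in SVZ tissue. Of 65 pathway genes listed, 28 were tested, and after 14 day PLX3397 5 were called lower and 1 higher, which is 21.4% against 1.26% of all genes, with a median log2 fold change of -0.0015 against 0.0062 over all genes. C5ar1, the C5a receptor, and Itgam and Itgb2, the integrin chains that together form complement receptor 3, fell, by 1.09 ± 0.09, 2.06 ± 0.10 and 1.91 ± 0.13 on the log2 scale. Lair1, an inhibitory receptor that binds C1q, also fell, by 1.22 ± 0.17. C4b, a substrate of the C1 complex, rose from 4.44 ± 0.53 to 12.8 ± 2.17 FPKM (log2 fold change 1.33 ± 0.21, adjusted p = 0.0014 by limma). At recovery C4b measured 6.87 ± 3.27 FPKM and was not called against control. At that time the receptors C5ar1, Itgam, Itgb2 and Lair1 were lower than control (4 of 28, or 14.3%, against 1.27% of all genes), and Itgb2 and C5ar1 had risen from 14 day PLX3397, by 0.73 ± 0.13 and 0.49 ± 0.09 on the log2 scale. Serping1, the inhibitor of C1r and C1s, C2, C1qbp and Calr were not called in any SVZ comparison, and C3 and Cd93, at means under 1 FPKM in each group, were not tested. C1qbp, a mitochondrial protein that binds the globular heads, measured 54.9 ± 4.32, 55.7 ± 2.76 and 57.2 ± 3.98 FPKM in the 3 groups. C1ra, C1rb, C1s1 and C1s2 were absent from the SVZ expression values and could not be tested there.

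In sorted cells the C1q genes were among the most abundant transcripts. Together they took 1.60 to 1.89% of reads in control microglia and 1.86 to 2.16% in WM repopulating cells without LPS. C1qa ranked from 3 to 6 of all genes in control microglia and from 3 to 4 in WM repopulating cells, and C1qb from 9 to 16 and from 13 to 15.

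Before LPS, no difference in the 3 genes was called between WM repopulating cells and control microglia. C1qa measured 5958, 7307 and 7670 FPKM in control microglia and 7491, 7893, 7871 and 8771 FPKM in WM repopulating cells. C1qb measured 3023, 3461 and 3354 FPKM against 3269, 3465, 3468 and 3841 FPKM. C1qc measured 6037, 6946 and 6530 FPKM against 6642, 6960, 6928 and 7641 FPKM. The groups overlapped for each gene. The fitted log2 fold changes were 0.20 (95% interval -0.32 to 0.73), 0.10 (-0.25 to 0.45) and 0.12 (-0.24 to 0.47), so that changes up to 1.66-fold, 1.36-fold and 1.39-fold lie within the intervals. None of the 3 was called by limma, where 1.21% of 12684 genes were. At an unadjusted p under 0.05 none passed either, against 1514 genes overall.

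At 6 hr after LPS, C1qc fell in both kinds of cell. In control microglia it measured 3951, 4312, 4025, 3872 and 3821 FPKM, below all 3 libraries without LPS. In WM repopulating cells it measured 4176, 4791, 5300 and 4278 FPKM, also below all libraries without LPS. The log2 fold changes were -0.70 ± 0.17 (SE, adjusted p = 0.0015) and -0.61 ± 0.16 (adjusted p = 0.0043) by limma, or 0.615-fold and 0.656-fold. With quantile normalization the call was lost in WM repopulating cells (-0.30, adjusted p = 0.25 by limma). LPS changed much of the transcriptome at this time, with 42.5% of tested genes called in control microglia (21.1% lower) and 38.8% in WM repopulating cells (19.5% lower). The summed microglial markers were also lower at 6 hr, at 6050 to 8472 FPKM against 19805 to 23060 in control microglia and at 7071 to 8447 against 18794 to 22332 in WM repopulating cells, and the monocyte markers were higher, at 1171 to 2317 against 106 to 334 FPKM in control microglia and at 1175 to 3271 against 127 to 388 FPKM in WM repopulating cells. In WM repopulating cells the 8 myeloid genes were lower too, at 9182 to 10939 against 11358 to 13346 FPKM. The neuronal markers were higher there, at 4.88 to 8.92 against 2.46 to 4.45 FPKM. Oligodendrocyte markers were lower in control microglia, at 19.1 to 29.1 against 31.7 to 39.5 FPKM. The groups did not overlap in any of these sums. Their part in the C1qc values was not tested.

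C1qa moved the same way with a smaller fit. It measured 5460, 6270, 5489, 5633 and 4962 FPKM in control microglia at 6 hr and 5568, 6112, 6927 and 5875 FPKM in WM repopulating cells. The WM libraries lay below all of those without LPS, and the control libraries overlapped with theirs. The log2 fold changes of -0.32 (95% interval -0.82 to 0.18, adjusted p = 0.30) and -0.39 (-0.87 to 0.10, adjusted p = 0.20) were not called by limma. When only the groups compared were fitted, C1qa was called in WM repopulating cells (adjusted p = 0.014 by limma).

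C1qb showed the smallest fitted change of the 3 genes at 6 hr. It measured 2896, 3917, 2913, 3081 and 2649 FPKM in control microglia and 2844, 3061, 3586 and 2948 FPKM in WM repopulating cells. Both groups overlapped with their libraries without LPS. The log2 fold changes were -0.10 (95% interval -0.43 to 0.24) and -0.18 (-0.50 to 0.14), neither called by limma (adjusted p = 0.67 and 0.39).

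**Figure D3:**
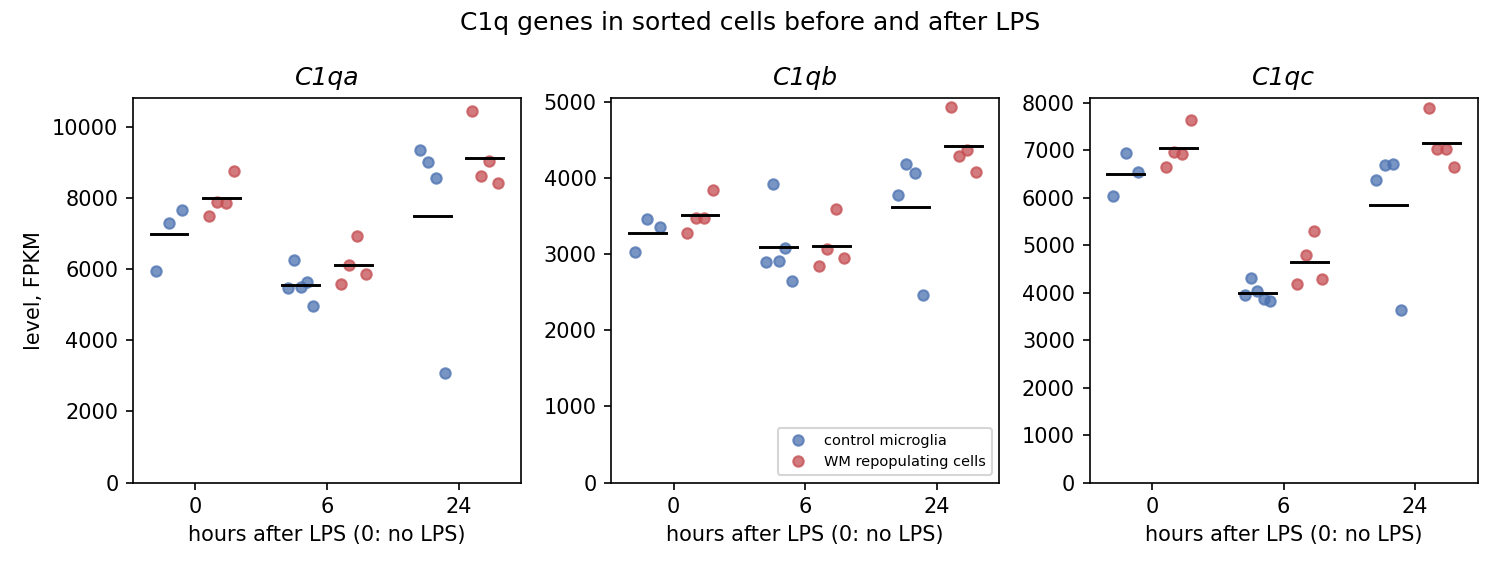
Level of each C1q gene in sorted cells in FPKM, a point per library, at 0 (no LPS), 6 and 24 hr after LPS, for control microglia (blue, n = 3, 5 and 4) and WM repopulating cells (red, n = 4 each), with the group mean as a line. C1qc at 6 hr lies below all libraries of 0 hr in both kinds of cell, and 1 control library of 24 hr lies far below the other 3.

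At 24 hr most libraries lay within or above the range without LPS. C1qc measured 6379, 6683, 6699 and 3631 FPKM in control microglia and 7884, 7021, 7025 and 6642 FPKM in WM repopulating cells. C1qa measured 9339, 9016, 8575 and 3069 FPKM against 10441, 8625, 9042 and 8433 FPKM. C1qb measured 3770, 4180, 4062 and 2467 FPKM against 4923, 4285, 4368 and 4074 FPKM. C1qb in WM repopulating cells lay above all 4 libraries without LPS. In 3 of the 4 control libraries both C1qa and C1qb lay above all 3 without LPS. The low value of each gene in control microglia came from replicate 4. That library also had 8022 FPKM of the nuclear noncoding RNA Malat1, against 2439 to 3459 in the other 3, and its summed myeloid genes, at 9905 FPKM, lay below the 10664 to 10709 of the others. Csf1r measured 595 FPKM there and 1198 to 1340 in the others, and 1242 of 12684 tested genes lay under 0.5 of their lowest value in the other 3 libraries, a count that was 100 to 667 in the other 23 libraries of this table. Rn45s, a ribosomal RNA gene, took 0.347% of its reads and 0.662 to 1.04% in the others. Their part in the C1q values was not tested.

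Between 6 and 24 hr C1qc rose in both kinds of cell, by log2 fold changes of 0.51 ± 0.15 (SE, adjusted p = 0.015) in control microglia and 0.63 ± 0.16 (adjusted p = 0.0092) in WM repopulating cells by limma. In this comparison 28.3% and 15.7% of all tested genes were called (15% and 8.19% higher). C1qb rose in WM repopulating cells (0.51 ± 0.16, adjusted p = 0.029), with all 4 libraries above all 4 of 6 hr. In control microglia the fit for C1qb was 0.21 ± 0.15 (adjusted p = 0.31). C1qa was not called in either kind of cell, at 0.31 ± 0.22 (adjusted p = 0.33) and 0.58 ± 0.23 (adjusted p = 0.099) by limma. When only the groups compared were fitted, C1qa was called in WM repopulating cells (0.58 ± 0.16, adjusted p = 0.026) and C1qc was not in control microglia (adjusted p = 0.093 by limma). Without control microglia 24 hr replicate 4 all 3 genes were called in control microglia, with log2 fold changes of 0.69, 0.38 and 0.72 for C1qa, C1qb and C1qc (adjusted p = 0.00030, 0.027 and 6.6e-05 by limma). With quantile normalization none of the calls between 6 and 24 hr held (adjusted p from 0.13 to 0.27 by limma). Leaving out any other replicate of control microglia 24 hr, C1qc was no longer called (adjusted p from 0.051 to 0.063 by limma). The call of C1qb in WM repopulating cells was lost without the filter on low values (0.51, adjusted p = 0.063 by limma) and without replicate 1, 2 or 4 of 6 hr or replicate 1 or 3 of 24 hr (adjusted p from 0.059 to 0.086 by limma).

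Cell markers moved over the same interval. The monocyte markers went from between 1171 and 2317 FPKM to between 464 and 566 in control microglia, and from between 1175 and 3271 to between 135 and 671 in WM repopulating cells. The microglial markers were higher at 24 hr, at 10292 to 13425 FPKM in control microglia and 8965 to 13432 in WM repopulating cells. Neither list overlapped between the times in either kind of cell. The neutrophil markers went from between 874 and 5626 FPKM to between 6268 and 15120 in control microglia, without overlap, and from between 417 and 10054 to between 3121 and 7095 in WM repopulating cells, with overlap. The choroid plexus and ependyma markers went from between 95.3 and 1353 FPKM to between 35.1 and 51.7 in control microglia and from between 156 and 596 to between 10.2 and 31.9 in WM repopulating cells. Border-associated macrophage markers went from between 49.5 and 81.6 to between 21.8 and 45.3 FPKM in WM repopulating cells, and astrocyte markers from between 56.4 and 77.0 to between 38.9 and 43.5 FPKM in control microglia, each without overlap. Their part in the C1q values was not tested.

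No C1q gene was called by limma between 24 hr and 0 hr, in control microglia (21.3% of genes called) or WM repopulating cells (18.8%). C1qb in WM repopulating cells came nearest, with a log2 fold change of 0.33 (95% interval 0.01 to 0.65, adjusted p = 0.15 by limma, unadjusted p = 0.046), the only 1 of these 6 with an unadjusted p under 0.05. Without control microglia 24 hr replicate 4 the value of C1qa in control microglia went from -0.02 to 0.37 (adjusted p = 0.068 by limma). C1qc stood at -0.19 (-0.55 to 0.17) in control microglia, which became 0.020 without that library, and 0.02 (-0.31 to 0.35) in WM repopulating cells.

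WM repopulating cells were also compared with control microglia after LPS. At 6 hr the log2 fold changes were 0.14 (95% interval -0.32 to 0.60) for C1qa, 0.02 (-0.29 to 0.32) for C1qb and 0.21 (-0.11 to 0.52) for C1qc. None was called, where 0.323% of genes were. At 24 hr they were 0.41 (-0.08 to 0.89), 0.31 (-0.01 to 0.64) and 0.33 (-0.0039 to 0.66), again with none called and 3.97% of genes called by limma. Without control microglia 24 hr replicate 4 these values dropped to 0.02, 0.14 and 0.11. Averaged over the 3 times, C1qc was higher in WM repopulating cells by 0.22 (0.02 to 0.41), with an unadjusted p of 0.030 and an adjusted p of 0.19 by limma, and 6.4% of genes were called. Without control microglia 24 hr replicate 4 that value was 0.15 (adjusted p = 0.21 by limma). The responses to LPS were not shown to differ between the 2 kinds of cell: for 6 hr against 0 hr the difference, WM minus control, was -0.07 (-0.76 to 0.63) for C1qa, -0.08 (-0.55 to 0.38) for C1qb and 0.09 (-0.38 to 0.57) for C1qc, and 0.0237% of genes were called. No C1q gene was called in the differences for 24 hr against 0 hr (0.0867% of genes called) or 24 hr against 6 hr (0.158%). These 6 differences ran from 0.12 to 0.30, and from -0.18 to 0.12 without control microglia 24 hr replicate 4, again with none called.

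**Figure D4:**
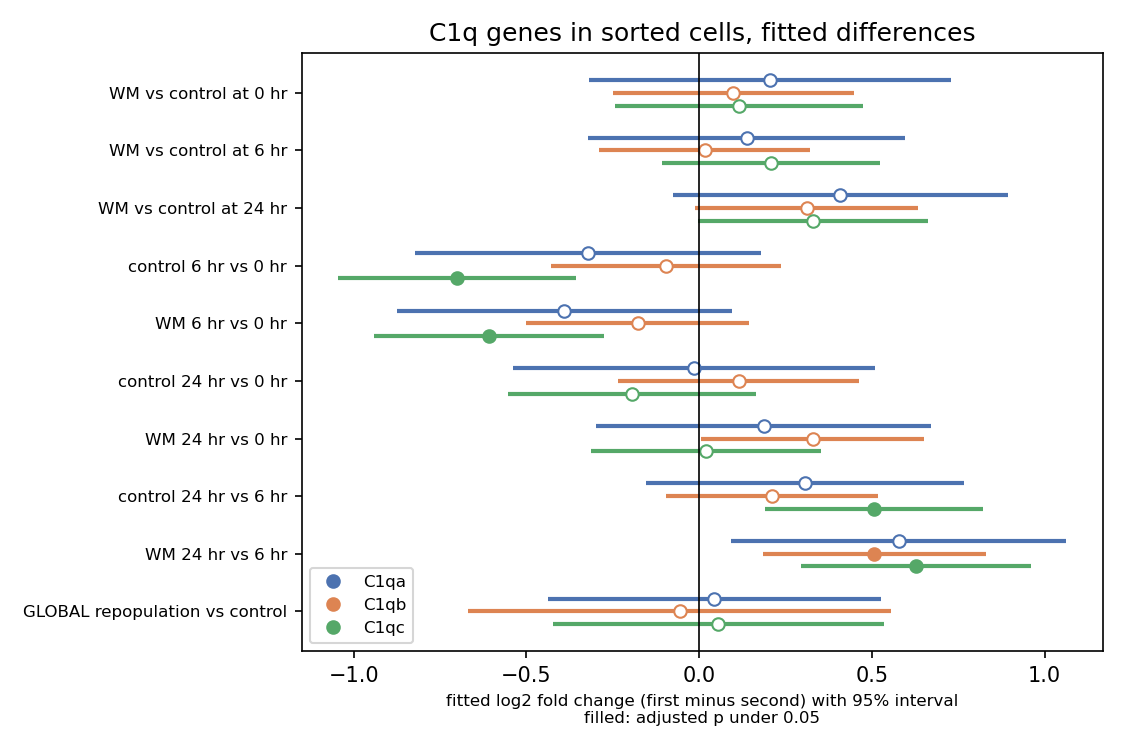
Fitted log2 fold change of each C1q gene with its 95% interval in 10 comparisons of sorted cells, as the first group minus the second; filled points have an adjusted p under 0.05 by limma. The filled points are C1qc in the 6 hr against 0 hr and 24 hr against 6 hr comparisons of both kinds of cell and C1qb in WM repopulating cells at 24 hr against 6 hr.

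In the order of group means, C1qa went from WM repopulating cells at 24 hr (9135 ± 907 FPKM, SD, n = 4) through WM at 0 hr (8007 ± 542), control at 24 hr (7500 ± 2970) and control at 0 hr (6978 ± 902, n = 3) to WM at 6 hr (6120 ± 582) and control at 6 hr (5563 ± 470, n = 5). C1qb had the same first and last places, at 4412 ± 362 and 3091 ± 487 FPKM, with control at 24 hr, WM at 0 hr, control at 0 hr and WM at 6 hr between them. C1qc ran from 7143 ± 526 FPKM in WM at 24 hr to 3996 ± 193 FPKM in control at 6 hr, with WM at 0 hr, control at 0 hr, control at 24 hr and WM at 6 hr between them. Neighbours in each of these orders overlapped in their libraries. Without control microglia 24 hr replicate 4 that group measured 8977 ± 384, 4004 ± 211 and 6587 ± 180 FPKM (n = 3) for C1qa, C1qb and C1qc, which placed it second for C1qa and above control at 0 hr for C1qc. C1qc in WM at 6 hr then lay below all libraries of its neighbour, control at 0 hr.

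The subunits were also compared after LPS as ratios within a library, which do not depend on how libraries are scaled. No ratio test passed adjustment, which these group sizes do not allow. C1qc over C1qb measured 1.997, 2.007 and 1.947 in control microglia without LPS and 1.36, 1.10, 1.38, 1.26 and 1.44 at 6 hr. In WM repopulating cells it measured 2.032, 2.008, 1.998 and 1.989 without LPS and 1.47, 1.57, 1.48 and 1.45 at 6 hr. No library at 6 hr reached the lowest without LPS. The log2 ratio fell by 0.61 in control microglia (exact two-sided permutation p = 0.036, n = 3 and 5) and by 0.43 in WM repopulating cells (exact p = 0.029, n = 4 and 4), in both cases the smallest p that these group sizes allow, and 0.074 after adjustment. At 24 hr it was still lower, at 1.69, 1.60, 1.65 and 1.47 in control microglia and 1.60, 1.64, 1.61 and 1.63 in WM repopulating cells. The fall from 0 hr was 0.31 in both (exact p = 0.057 and 0.029, adjusted p = 0.11 and 0.074), and the exact test of 4 against 3 libraries cannot go below 0.057. Without control microglia 24 hr replicate 4 the fall in control microglia was 0.27, with an exact p of 0.10, the smallest that 3 against 3 allow.

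C1qa over C1qb also dropped at 6 hr, from 2.12 ± 0.16 (SD, n = 3) to 1.81 ± 0.12 (n = 5) in control microglia and from 2.28 ± 0.0094 to 1.97 ± 0.03 (n = 4 each) in WM repopulating cells, without overlap (exact permutation p = 0.036 and 0.029, adjusted 0.074). C1qa over C1qc rose, from 1.07 ± 0.10 to 1.39 ± 0.07 and from 1.14 ± 0.0084 to 1.32 ± 0.041, with the same p values. At 6 hr C1qc over C1qb was higher in WM repopulating cells than in control microglia, without overlap, by 0.19 on the log2 scale (exact permutation p = 0.016, adjusted p = 0.074, n = 4 and 5). C1qa over C1qb was higher there by 0.12 with the same p values. Without control microglia 6 hr replicate 2, whose C1qa over C1qb ratio of 1.60 was far below the others, these differences were 0.13 and 0.077 (exact p = 0.029, adjusted p = 0.077). At 0 hr the C1qc over C1qb ratios of the 2 kinds of cell overlapped (difference 0.02, exact p = 0.34), as they did at 24 hr (difference 0.02, exact p = 0.86, and -0.02, exact p = 0.34, without control microglia 24 hr replicate 4). Control microglia 24 hr replicate 4 had C1qa below C1qc, at a ratio of 0.845, against 1.28 to 1.46 in the other 3 libraries of its group.

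**Figure D5:**
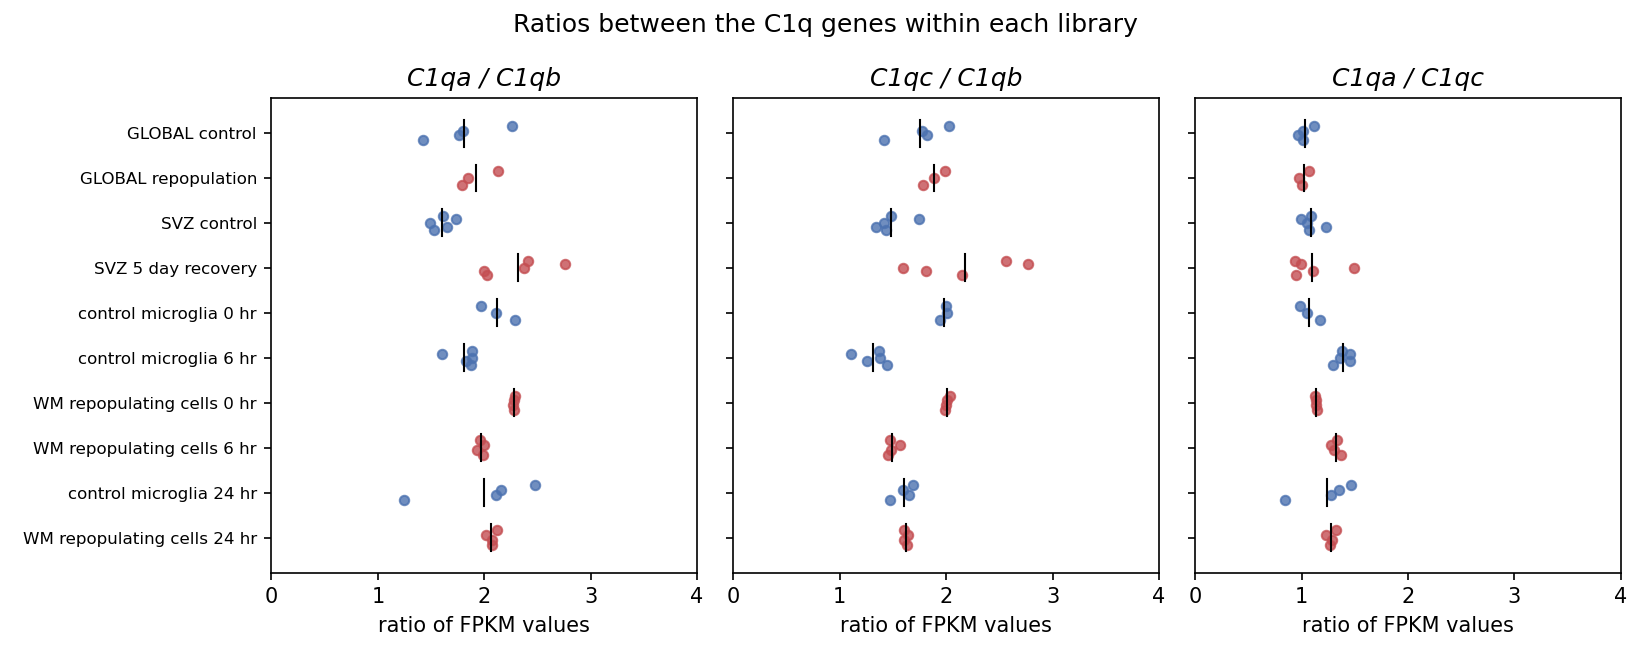
Ratios of FPKM between the C1q genes within each library, a point per library and the group mean as a line (blue, control groups; red, recovery, WM and GLOBAL repopulation groups; the 14 day PLX3397 libraries are left out because several have 0 reads). C1qc over C1qb lies between 1.95 and 2.03 in sorted cells of the LPS experiment at 0 hr and between 1.10 and 1.57 at 6 hr.

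Set against the 8 myeloid genes, C1q in sorted cells stood at a ratio of 6.68 ± 0.42 in control microglia (SD, n = 3) and 7.05 ± 0.20 in WM repopulating cells (n = 4) without LPS. In WM repopulating cells at 24 hr the ratio rose to 8.83 ± 0.53, above all libraries without LPS and all control libraries of 24 hr (exact permutation p = 0.029 for both, adjusted p = 0.080 over 9 comparisons). Control microglia at 24 hr measured 7.05 ± 1.69, with 4.53 in replicate 4 and 7.73 to 8.18 in the others, which lay above all libraries without LPS. Against 0 hr the change in control microglia was 1.03-fold (exact permutation p = 0.91). Without replicate 4 the ratio of WM to control cells at 24 hr went from 1.28-fold to 1.12-fold. At 24 hr the markers of border-associated macrophages summed to 21.8 to 45.3 FPKM in WM repopulating cells and 62.8 to 81.3 in control microglia. Endothelium markers summed to 1.32 to 7.15 FPKM in WM repopulating cells and 7.59 to 12.6 in control microglia. The choroid plexus and ependyma markers summed to 10.2 to 31.9 FPKM in WM repopulating cells, against 35.1 to 51.7 in control microglia and 278 to 714 in WM repopulating cells without LPS. The microglial markers of WM repopulating cells, at 8965 to 13432 FPKM, lay below the 18794 to 22332 without LPS. Their part in these ratios was not tested. Control microglia at 6 hr measured 5.92 ± 0.29, below all libraries without LPS (exact p = 0.036, adjusted p = 0.080). Itgam and Ptprc, which encode the sorted antigens CD11b and CD45, are among the 8 genes. None of the 9 comparisons passed adjustment, which these group sizes do not allow even with full separation, and 4 had an unadjusted p under 0.05. Without Ptprc the control groups at 6 and 0 hr overlapped in this ratio (0.941-fold, exact p = 0.14) and WM repopulating cells at 0 hr lay above control microglia without overlap (1.08-fold, exact p = 0.057, the smallest possible), and without Csf1r and Aif1 WM repopulating cells at 6 hr lay below those at 0 hr (0.765-fold, exact p = 0.029).

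Over the 24 libraries of this experiment the genes most like the mean of the C1q genes were Emc10 (r = 0.937 over 12684 genes), a subunit of the endoplasmic reticulum membrane protein complex, Grn (0.919), which encodes progranulin, Itm2c (0.914), Tcn2 (0.879), the transcobalamin gene, and Pigs (0.874). Among the members, C1qa followed C1qb (r = 0.892) and C1qc (0.880) more closely than C1qc followed C1qb (0.782). With the low library of control microglia at 24 hr (replicate 4) left out, these 5 genes had r from 0.847 to 0.925 and stood between place 3 and 33, and the members had 0.901, 0.911 and 0.748 in the same order. These correlations describe libraries that share groups, and no test was run on them. Grn measured 743 ± 91.2, 557 ± 101 and 792 ± 209 FPKM in control microglia at 0, 6 and 24 hr, and 887 ± 108 at 24 hr without that library.

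Other genes of the pathway moved in other directions after LPS. Of 25 pathway genes tested, 6 rose and 3 fell at 6 hr in control microglia and 8 rose and 2 fell in WM repopulating cells, with medians of 0.19 and -0.0031 on the log2 scale against 0.012 and -0.0047 over all genes. The shares called were 36% and 40%, near the 42.5% and 38.8% of all genes. C3, the central component, rose from 3.56 ± 3.26 to 16.4 ± 2.44 FPKM in control microglia (log2 fold change 2.29 ± 0.38) and from 3.52 ± 1.15 to 19.5 ± 9.19 FPKM in WM repopulating cells (2.11 ± 0.37). By 24 hr it had fallen to 5.29 ± 0.56 and 3.99 ± 1.13 FPKM. C4b rose at 6 hr in both kinds of cell (log2 fold changes 1.24 ± 0.31 and 1.15 ± 0.30) and again between 6 and 24 hr, from 0.787 ± 0.863 to 3.04 ± 0.99 and then 8.69 ± 2.23 FPKM in control microglia, and to 8.13 ± 2.05 FPKM in WM repopulating cells at 24 hr. C1ra, the C1r protease gene, was called at 6 hr in WM repopulating cells, from 0.971 ± 0.517 to 2.38 ± 1.35 FPKM (adjusted p = 0.042 by limma). Ptx3, a pattern recognition protein that binds C1q, was at 0 in all 3 control libraries without LPS and measured 10.1 ± 8.40 FPKM at 6 hr.

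Receptors and binding proteins of the list also changed. C5ar1, the C5a receptor, rose from 104 ± 4.41 to 929 ± 110 FPKM at 6 hr in control microglia and from 115 ± 11.8 to 858 ± 108 FPKM in WM repopulating cells. C3ar1, the C3a receptor, rose by 0.87 ± 0.19 and 0.84 ± 0.19 on the log2 scale, and C1qbp by 0.95 ± 0.13 and 0.72 ± 0.13. Lair1 fell from 265 ± 40.5 to 75.6 ± 38.0 FPKM and from 235 ± 5.88 to 102 ± 18.6 FPKM. C5ar2 fell in control microglia at 6 hr (-0.88 ± 0.35, adjusted p = 0.044 by limma). Calr, an endoplasmic reticulum chaperone that serves as a cell surface receptor for C1q stalks, rose at 24 hr in control microglia, from 168 ± 2.75 to 390 ± 42.8 FPKM, and measured 258 ± 110 FPKM in WM repopulating cells, where it was not called. Cd93, described as a C1q receptor, rose in WM repopulating cells at 6 hr, from 0.428 ± 0.512 to 2.02 ± 0.88 FPKM, and in control microglia at 24 hr against 0 hr, from 0.659 ± 0.451 to 2.18 ± 1.07 FPKM. Clu, the terminal pathway inhibitor clusterin, fell in WM repopulating cells from 17.9 ± 4.95 to 2.18 ± 0.81 FPKM at 24 hr. Control microglia at 24 hr without replicate 4 measured 5.55 ± 0.29 FPKM for C3, 9.49 ± 1.92 for C4b, 407 ± 29.6 for Calr and 1.67 ± 0.43 for Cd93. Serping1 and C2 stayed under 1 FPKM on average in every group of this experiment and were not tested.

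In the GLOBAL experiment, repopulated cells and controls had overlapping levels of the 3 genes. C1qa measured 3559, 3165, 2914 and 5164 FPKM in control and 3748, 3394 and 4049 FPKM in GLOBAL repopulation. C1qb measured 1572, 1760, 1652 and 3628 FPKM against 1761, 1839 and 2256 FPKM, and C1qc 3183, 3120, 3006 and 5121 FPKM against 3495, 3476 and 4020 FPKM. The highest control value of each gene was that of replicate 4. The fitted log2 fold changes were 0.04 (95% interval -0.44 to 0.53) for C1qa, -0.06 (-0.67 to 0.56) for C1qb and 0.06 (-0.42 to 0.54) for C1qc by limma, with adjusted p from 0.955 to 0.965. No gene of the whole table was called (0% of 16651), and 1504 genes had an unadjusted p under 0.05, none of them a C1q gene. Without control replicate 4 the 3 values were 0.22, 0.23 and 0.24 (adjusted p from 0.44 to 0.52 by limma).

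Control replicate 4 of this experiment also had lower ratios to C1qb, at 1.42 for C1qa and 1.41 for C1qc, against 1.76 to 2.26 and 1.77 to 2.02 in the other 3 control libraries. In that library S100a9, a neutrophil gene, was lowest, at 601 FPKM against 841 to 7262, and the summed myeloid genes were highest, at 10987 FPKM against 8850 to 9952. Rn45s took 11.5% of its reads, against 6.23 to 7.41% in the other controls and 4.91 to 7.60% in GLOBAL repopulation. Their part in the C1q values was not tested. The ratio tests of this comparison gave exact p from 0.51 to 0.80 (0.70 to 0.90 without that library), and 3 against 4 libraries cannot go below 0.057. Of the 37 pathway genes tested in this table, none was called in either direction.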

How the data were processed

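RNA sequencing of 46 libraries was analysed from 3 deposited tables of FPKM values, with the groups taken from the sample titles. According to the study's methods, the authors prepared libraries with Smart-seq2, aligned reads with STAR, counted them with featureCounts and normalized with edgeR and limma; the labels list the mm10 build, and their extraction text describes another library protocol and other dissected regions (cortex, hippocampus, thalamus/striatum), although each sample is labelled as subventricular zone or myeloid cells. The study's account was used. The study's methods give n as mice per group, while the titles do not name the animal of each library. The number of unmapped columns was 0.

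The C1q genes and the pathway, marker and motif lists were chosen with earlier results of these data known. FPKM was used as log2(FPKM + 1), filtered at 1 FPKM in at least 3 libraries, and fitted with limma 3.58.1 (R 4.3.3, intensity trend) over all groups of a table, with Benjamini-Hochberg adjustment. Reads were recovered from the steps of low values (tolerance 0.03 of a read). Ratios were tested by exact permutation in scipy 1.17.1. Named genes were the 3 members, the C1 proteases, their inhibitor and substrates and the C1q binding proteins, any other pathway gene called (1 is counted but not reported here), and the 5 genes most correlated with the members in the SVZ and LPS tables. Marker genes came from the lists, and Malat1 was named after its values were seen. The script was tested on simulated data. Alternatives were pseudocounts of 0.1 and 0.5, other filters, no trend, rescaling, quantile normalization, fewer groups, a replicate block and leaving out each library.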

Additional observations from a re-analysis of the deposited data

Results flagged for a closer look

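In groups of 4 to 10 libraries, the gap between the highest or lowest library and its nearest neighbour was compared with Dixon's 95% critical value, for the levels and ratios of the C1q genes. Of 59 such sets 8 passed, where chance alone flags about 2.95. In control microglia at 24 hr replicate 4 was far below the others in C1qa (3069 FPKM), in C1qc (3631 FPKM) and in the ratio of C1q to the 8 myeloid genes (4.53). In GLOBAL control replicate 4 was far above the others in C1qb (3628 FPKM), in C1qc (5121 FPKM) and in the ratio of C1q to the myeloid genes (7.04). In SVZ 5 day recovery replicate 3 had the lowest ratio of C1q to the myeloid genes (2.01), and in control microglia at 6 hr replicate 2 had the lowest C1qa over C1qb ratio (1.60).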

How the results depend on the processing

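The calls of all 3 genes in the SVZ comparisons held under each alternative, and so did the call of C1qc at 6 hr in control microglia. The number of C1q genes called changed in 3 comparisons. Between 24 and 6 hr in control microglia 1 was called, 0 with quantile normalization or with only the groups compared, and from 0 to 3 when a library was left out. Between 6 and 0 hr in WM repopulating cells 1 was called, 0 with quantile normalization and 2 with only the groups compared. Between 24 and 6 hr in WM repopulating cells 2 were called, 1 without a filter, 0 with quantile normalization, and from 1 to 2 when a library was left out. With only the groups compared C1qa was called there as well (adjusted p = 0.026 by limma). The cause was not tested. Leaving the reads of Rn45s, a ribosomal RNA gene, out of the library totals, Ptprc out of the myeloid genes, 14 day PLX3397 replicate 1 out of the pooled reads and control microglia 24 hr replicate 4 out of the correlations were alternatives chosen after seeing the data.

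Values that were not called changed sign as follows (log2). With quantile normalization WM against control gave -0.19 (C1qb) and -0.11 (C1qc) at 0 hr, -0.054 (C1qb) at 6 hr and -0.036 (C1qb) over the 3 times; C1qb gave -0.091 in control microglia and C1qa -0.055 in WM repopulating cells at 24 hr against 0 hr; the difference of responses gave 0.13 (C1qb, 6 hr against 0 hr) and -0.020 (C1qc, 24 hr against 6 hr); and GLOBAL repopulation against control gave -0.029 (C1qa) and -0.042 (C1qc). Rescaling each library to the same total gave -0.023 (C1qa) and -0.011 (C1qc) for GLOBAL.

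Leaving out a library gave ranges that crossed 0. For WM against control at 6 hr the range was -0.055 to 0.10 (C1qb). At 24 hr against 0 hr it was -0.16 to 0.37 (C1qa) and -0.27 to 0.020 (C1qc) in control microglia and -0.029 to 0.059 (C1qc) in WM repopulating cells. For the differences of responses it was -0.14 to 0.043 (C1qa) and -0.15 to 0.0065 (C1qb) at 6 hr against 0 hr, -0.18 to 0.35 (C1qa) and -0.00074 to 0.29 (C1qc) at 24 hr against 0 hr, and -0.12 to 0.42 (C1qa) and -0.095 to 0.20 (C1qc) at 24 hr against 6 hr. For GLOBAL it was -0.058 to 0.22 (C1qa), -0.18 to 0.23 (C1qb) and -0.019 to 0.24 (C1qc).

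The labels do not say whether replicate numbers pair the samples. Correlations of same-numbered libraries ran from -0.15 to 0.49, which cannot decide it, and the main fits were unpaired. With a replicate block the number of C1q genes called was 3 in each SVZ comparison, 1 for 6 hr against 0 hr in both kinds of cell and for 24 hr against 6 hr in control microglia, 2 in WM repopulating cells and 0 elsewhere, as without it. The block reversed C1qb in WM against control at 6 hr (-0.036), C1qa in control microglia at 24 hr against 0 hr (0.065) and C1qb in GLOBAL (0.23), none called, and 55 genes of the GLOBAL table were called with it. No ratio comparison passed adjustment in any alternative, and with these group sizes none could. After 14 day PLX3397 the read counts, at most 6 a gene and library, limit what can be said of single libraries.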
